A study of Mus musculus with 6 samples.

Results

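The pentose phosphate pathway was followed through 9 enzyme genes, taken by name from the raw count table for their place in the pathway. The choice was made with earlier results of these data known. They are 9 of 56691 gene rows, and all 9 were among the 15429 genes with enough counts to be tested. The oxidative arm holds 3 of them (G6pdx, Pgls and Pgd) and the non-oxidative arm holds 4 (Rpia, Rpe, Tkt and Taldo1). The remaining 2, Prps1 and Prps2, are the phosphoribosyl pyrophosphate (PRPP) synthetases that draw on the pathway's ribose 5-phosphate.

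Bulk RNA sequencing compared primary cardiomyocytes of neonatal mice, a preparation called NMCMs in the labels, in 2 groups of 3 libraries. The vector group had the genotype Control and received Ad-cTNT vector. The HMGB2 group had the genotype HMGB2 overexpression and received Ad-cTNT-HMGB2. Both groups therefore carried an adenovirus with the cardiac troponin T promoter, which is used to direct a transgene to cardiomyocytes. Strain, viral dose and collection time do not appear in the sources used. The labels do not say that replicates came from separate cultures or animals, so p-values here cover only library-to-library spread, and that spread may be technical.

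The oxidative arm turns glucose 6-phosphate into ribulose 5-phosphate in irreversible steps and yields NADPH, the reductant used against peroxides and in lipid and nucleotide synthesis. The non-oxidative arm interconverts sugar phosphates reversibly and links ribose 5-phosphate to fructose 6-phosphate and glyceraldehyde 3-phosphate of glycolysis. Heart muscle runs the pathway at a low rate compared with liver or adipose tissue, and PRPP made from its ribose feeds nucleotide and NAD synthesis.

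With HMGB2, G6pdx RNA rose, Pgd, Tkt and Taldo1 RNA fell, and the other 5 genes did not pass the test. G6pdx rose 1.33-fold and Taldo1 fell 1.45-fold. The oxidative arm was split, with its entry enzyme higher and its second dehydrogenase lower. In the non-oxidative arm the genes past the threshold were those of both carbon-transferring enzymes, Tkt and Taldo1. The isomerase gene Rpia had a log2 fold change of -0.33, beside -0.28 for Tkt, but did not pass. The test was edgeR's quasi-likelihood F-test with Benjamini-Hochberg adjustment over all genes tested, and the threshold was an adjusted p of 0.05. Among all genes tested, 25.2% passed it, 14.4% higher and 10.8% lower with HMGB2, beside 1 member higher and 3 lower.

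**Figure D1:**
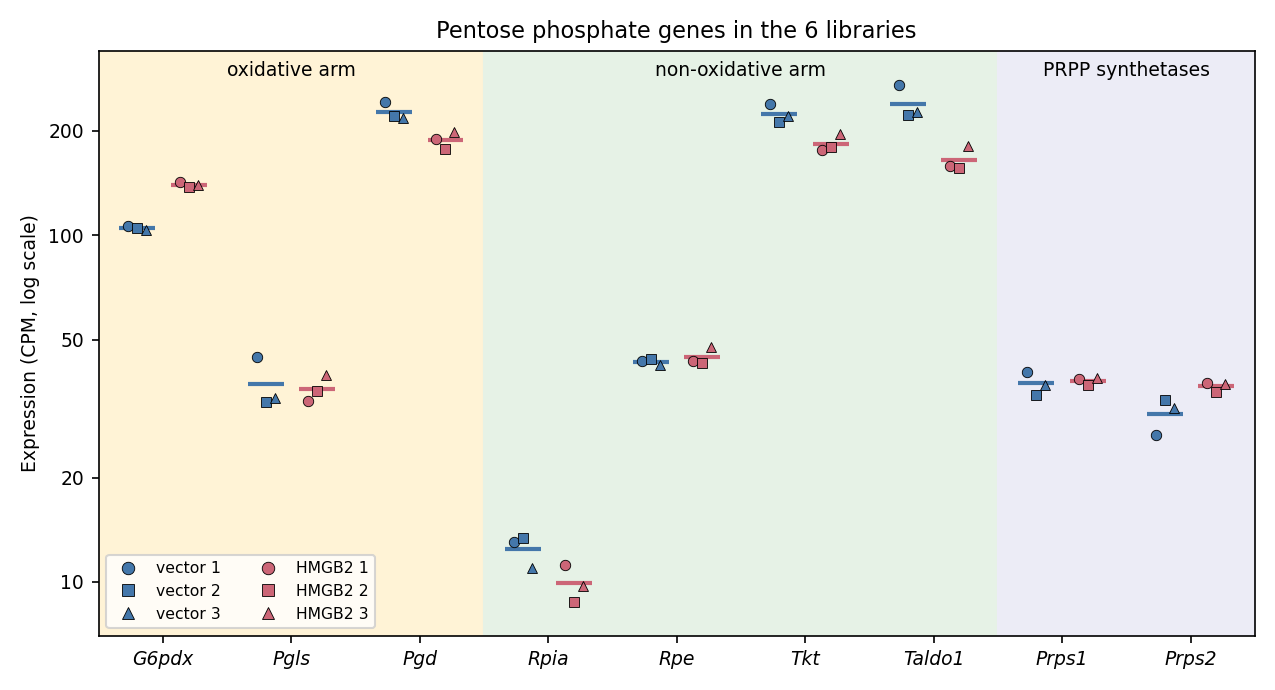
CPM of each of the 9 genes in every library, with 3 vector and 3 HMGB2 libraries and the mean of each group as a line. The HMGB2 libraries lie above the vector libraries for G6pdx and Prps2, below them for Pgd, Tkt and Taldo1, and overlap them for the other 4 genes.

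G6pdx encodes the rate-limiting entry enzyme of the oxidative arm. Levels are given as CPM, the count scaled to a common library size. The gene (ENSMUSG00000031400) lies on the minus strand of chromosome X at 74409483 to 74429194 of GRCm38. G6pdx was at 106, 104.5 and 103.6 CPM in vector 1, 2 and 3, and at 143, 137.8 and 139 CPM in HMGB2 1, 2 and 3. All HMGB2 libraries were above all vector libraries, and within each group the libraries lay close together. The means were 105 ± 1.43 and 139.8 ± 2.47 CPM (SD, n = 3 each), a log2 fold change of 0.42 with a standard error (SE) of 0.06 and a 95% interval from 0.27 to 0.56 (edgeR adjusted p = 0.00138). G6pdx passed the threshold in all 17 alternative analyses, with a log2 fold change from 0.40 to 0.44.

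Pgls encodes 6-phosphogluconolactonase, which hydrolyses a lactone to 6-phosphogluconate, the substrate of Pgd. It lies on chromosome 8 at 71592176 to 71601092, on the plus strand (ENSMUSG00000031807). The 3 vector libraries gave 44.6, 32.9 and 33.9 CPM for Pgls, and the 3 HMGB2 libraries gave 33.2, 35.6 and 39.5 CPM. Vector 1 was the highest of the 6, and the groups overlapped. The log2 fold change was -0.04 with an SE of 0.13 and a 95% interval from -0.32 to 0.24 (edgeR adjusted p = 0.854), and its sign turned without vector 1 (0.11) or without HMGB2 1 (0.02).

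Pgd encodes 6-phosphogluconate dehydrogenase, the other NADPH-producing step of the arm. It lies on the minus strand of chromosome 4 at 149149991 to 149166771 (ENSMUSG00000028961). Its level was 243, 220.2 and 218 CPM in the vector libraries and 189, 177 and 198 CPM in the HMGB2 libraries. No HMGB2 library reached the lowest vector library, and vector 1 and HMGB2 3 were the highest of their groups. Pgd fell by 0.27 on the log2 scale (SE 0.08, 95% interval -0.44 to -0.10, edgeR adjusted p = 0.0290), from 227 ± 13.6 to 188 ± 10.5 CPM (SD, n = 3 each). The call was lost when 1 library was left out, at an adjusted p of 0.0686 for vector 2, 0.0516 for vector 3, 0.101 for HMGB2 1 and 0.134 for HMGB2 2, with the direction kept each time.

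The promoters of both NADPH-producing enzymes were searched for the core of the antioxidant response element, the sequence bound by NRF2, because G6pdx and Pgd are textbook NRF2 targets. The letters searched were TGACNNNGC on either strand, in RefSeq windows (GRCm38.p6) from 250 bases before to 50 bases after a start site. Both sites found are printed with the match in capitals.
G6pdx, chrX:74428919-74428947, 57 bases upstream of the RefSeq start but inside an exon of GENCODE, plus strand (opposite to the gene): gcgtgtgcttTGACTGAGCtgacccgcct
Pgd, chr4:149166061-149166089, 3 bases after the start of one of its 2 RefSeq windows, minus strand (that of the gene): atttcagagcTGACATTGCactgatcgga
These were the only matches among the windows of the 9 genes, and 12.4% of all 32851 windows hold one. The Pgd window with the match lies inside the annotated gene, whose start on the minus strand is at 149166771. The other Pgd window spans that annotated start and holds 0 matches of the core. The 2 genes with a match moved in opposite directions, with a log2 fold change of 0.42 for G6pdx and -0.27 for Pgd. A match describes letters only, and binding of NRF2 was not measured here.

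Rpia encodes ribose-5-phosphate isomerase, which makes ribose 5-phosphate from ribulose 5-phosphate. It lies on the minus strand of chromosome 6 at 70765720 to 70792232 (ENSMUSG00000053604) and had the lowest counts of the 9. The vector libraries gave 13.1, 13.4 and 10.9 CPM and the HMGB2 libraries 11.2, 8.76 and 9.76 CPM. HMGB2 1 was above vector 3, so the groups overlapped. The log2 fold change was -0.33 (SE 0.14, 95% interval -0.63 to -0.02), and it did not pass after adjustment over all genes (edgeR adjusted p = 0.111).

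Rpe encodes ribulose-5-phosphate 3-epimerase, which makes xylulose 5-phosphate, the donor substrate of transketolase. It lies on the plus strand of chromosome 1 at 66700831 to 66719805 (ENSMUSG00000026005). The means were 43.1 ± 0.852 CPM with the vector and 44.6 ± 2.68 CPM with HMGB2 (SD, n = 3 each), and the groups overlapped. The log2 fold change of 0.05 had a 95% interval from -0.13 to 0.22 (edgeR adjusted p = 0.704).

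Tkt encodes transketolase, the thiamine-dependent enzyme that moves 2-carbon units between sugar phosphates. It lies on the plus strand of chromosome 14 at 30548359 to 30574720 (ENSMUSG00000021957). Tkt was at 238, 211 and 220.1 CPM in the vector libraries and at 176, 179 and 196 CPM in the HMGB2 libraries. The groups did not overlap, and vector 1 and HMGB2 3 were again the highest of their groups. Tkt fell by 0.28 on the log2 scale (SE 0.08, 95% interval -0.45 to -0.11, edgeR adjusted p = 0.0258), from 223 ± 13.6 to 184 ± 10.6 CPM (SD, n = 3 each). The call was lost when 1 library was left out, at an adjusted p of 0.0629 for vector 3, 0.121 for HMGB2 1 and 0.109 for HMGB2 2.

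Taldo1 encodes transaldolase, which moves 3-carbon units and closes the way back to glycolysis. It lies on the plus strand of chromosome 7 at 141392199 to 141402968 (ENSMUSG00000025503). The vector libraries gave 271, 221 and 227 CPM and the HMGB2 libraries 158, 156 and 181 CPM. The lowest vector library was above the highest HMGB2 library, and vector 1 and HMGB2 3 were the highest of their groups. Taldo1 fell by 0.54 on the log2 scale (SE 0.10, 95% interval -0.76 to -0.32, edgeR adjusted p = 0.00372), from 239.5 ± 27.0 to 165 ± 14.01 CPM (SD, n = 3 each). The call held in all 17 alternative analyses, with a log2 fold change from -0.61 to -0.44. In bulk RNA, fewer cells that express a gene and less of its RNA per cell cannot be told apart, here and for every member.

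The 250 bases before the RefSeq start of Taldo1 are shown because it had the largest fall of the 9 genes, with the GC box GGGCGG, the motif bound by SP1, in capitals.
Taldo1, chr7:141391910-141392159, plus strand: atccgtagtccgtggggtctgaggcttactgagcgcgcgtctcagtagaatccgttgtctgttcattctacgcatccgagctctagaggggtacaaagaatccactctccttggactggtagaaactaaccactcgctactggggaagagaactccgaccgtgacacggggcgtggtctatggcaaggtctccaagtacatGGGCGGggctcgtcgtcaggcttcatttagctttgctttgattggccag
Searched on both strands, the GC box was found in the windows of 8 of the 9 genes, all but Prps2, and in 35.7% of all windows. TATAAA, the TATA box, was in none of the 9 and in 13.6% of all windows. CACGTG, an E-box, was likewise in none of the 9 and in 7.15% of all windows.

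Prps1 and Prps2 encode isoforms of PRPP synthetase, which activates ribose 5-phosphate for nucleotide synthesis. Both lie on chromosome X, Prps1 on the plus strand at 140456613 to 140476140 (ENSMUSG00000031432) and Prps2 on the minus strand at 167346322 to 167382749 (ENSMUSG00000025742). Prps1 was at 37.3 ± 2.91 CPM with the vector and 38.0 ± 1.02 CPM with HMGB2 (SD, n = 3 each), with overlapping groups and a log2 fold change of 0.03 (95% interval -0.16 to 0.22, edgeR adjusted p = 0.851). Prps2 was at 26.5, 33.5 and 31.7 CPM in the vector libraries and at 37.4, 35.4 and 37.2 CPM in the HMGB2 libraries. Its groups did not overlap, with vector 1 the lowest of the 6. The log2 fold change of Prps2 was 0.26 (SE 0.10, 95% interval 0.04 to 0.48), and it did not pass (edgeR adjusted p = 0.0864). Groups that do not overlap were common, at 40.5% of all genes tested (21.6% higher and 18.9% lower with HMGB2), beside 2 members higher and 3 lower.

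**Figure D2:**
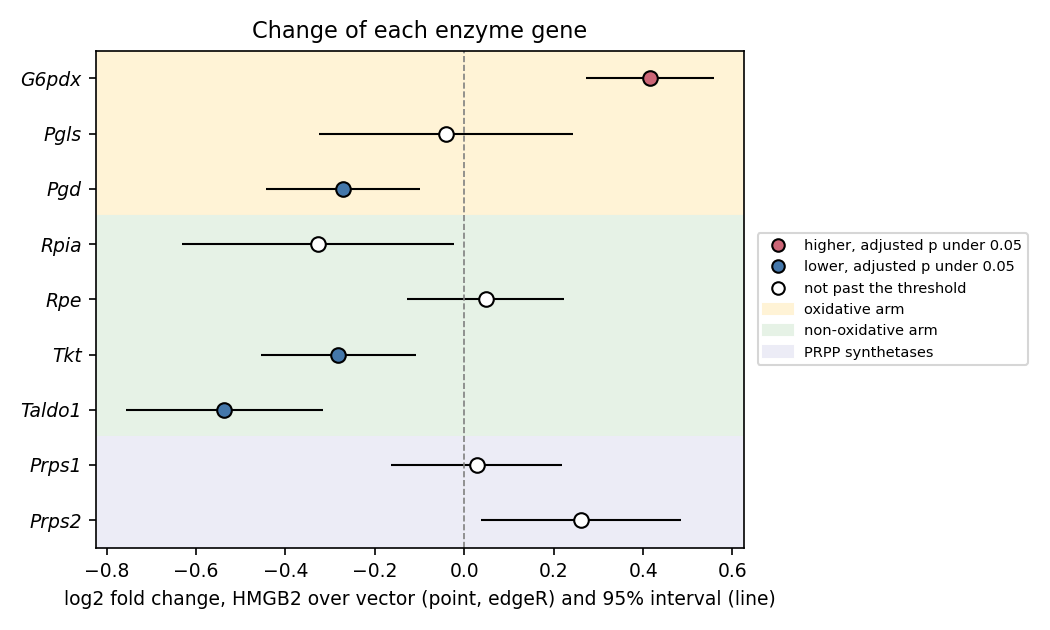
Log2 fold change of each gene, HMGB2 over vector, with its 95% interval from edgeR, grouped by arm. G6pdx alone is past the threshold above 0, and Pgd, Tkt and Taldo1 are past it below 0.

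Some members share sequence with other genes. Ikbkg lies on the opposite strand over 13.6% of the exonic bases of G6pdx, and without a stated strand setting its reads there cannot be told apart from those of G6pdx. Ikbkg itself was at 58.5 ± 0.937 CPM with the vector and 62.2 ± 2.46 CPM with HMGB2 (log2 fold change 0.09, edgeR adjusted p = 0.407). Kansl1l overlaps 17.9% of the exonic bases of Rpe from the opposite strand, and Niban3 overlaps 20.6% of those of Pgls on the same strand. The intronless copy G6pd2, 93.1% identical over 87.5% of the G6pdx transcript, had 0 counts in all 6 libraries, which allows up to 3 counts or 0.240 CPM in the smallest of them. Prps1l3, 92.8% identical over 75.9% of the Prps1 transcript, held 27.5 ± 1.89 and 27.2 ± 0.163 CPM (SD, n = 3 each). Prps1 and Prps1l3 are therefore uncertain as separate genes, and the log2 fold change of Prps1l3 of -0.01 turned its sign under 7 alternatives. The Taldo1 pseudogene Gm17823, 94.8% identical over 82.6% of the transcript, had between 0 and 11 counts.

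Levels of different genes were compared per length, as CPM per kilobase of the principal transcript. With the vector, Taldo1 was the highest at 195, followed by Pgd at 102, Tkt at 69.3, Pgls at 41.6 ± 7.23 and G6pdx at 39.5 ± 0.539 (SD, n = 3 each), which do not differ beyond their spread. Prps1 at 19.0, Rpe at 16.0, Prps2 at 8.26 and Rpia at 6.81 were the lowest. With HMGB2 the levels were 134 for Taldo1, 84.8 for Pgd, 57.0 for Tkt, 52.7 for G6pdx and 40.4 for Pgls, so G6pdx passed Pgls in the order. Pgls and G6pdx with the vector, and Tkt and G6pdx with HMGB2, are neighbours whose order rests on the length used, as does the place of Pgls. On the deposited FPKM scale, where the implied length equalled that of all annotated exons for 7 of 9 genes (Pgd had 6446 against 6447 bases and Rpia 5368 against 5359), G6pdx at 33.7 lay next to Pgd at 34.9 with the vector and was above it with HMGB2 (45.6 against 29.3). Pgls, at 9.77 with the vector, was on that scale below Prps1 at 18.6 and Rpe at 13.7.

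The arms were compared through the sum of G6pdx, Pgls and Pgd over the sum of Rpia, Rpe, Tkt and Taldo1, both in CPM per kilobase of the principal transcript. This ratio was 0.629, 0.652 and 0.639 in the vector libraries and 0.857, 0.845 and 0.804 in the HMGB2 libraries. Every HMGB2 library was above every vector library, and the gap was larger than the spread within either group. The means were 0.640 ± 0.0116 and 0.835 ± 0.0275 (SD, n = 3 each), a value 1.31 times higher with HMGB2. As a score over chosen genes it has no p. The oxidative sum overlapped between groups, at 183 ± 13.9 and 178 ± 7.34, while the non-oxidative sum was lower in every HMGB2 library, at 287 ± 26.3 and 213 ± 15.5. Taldo1 is the most abundant gene of the non-oxidative sum, at 195 of 287 with the vector and 134 of 213 with HMGB2. The ratio without Taldo1 alone was not taken. Without Pgd and Taldo1, the most abundant gene of each arm, the arm ratio was 0.880 ± 0.0413 with the vector and 1.18 ± 0.0243 with HMGB2. Leaving out Pgd removes the only oxidative gene called lower, which by itself favours a higher ratio with HMGB2. Leaving out Taldo1 removes the largest fall and works the other way. On the FPKM scale the ratio was 0.505 ± 0.0189 and 0.720 ± 0.0362 (SD, n = 3 each).

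Ratios within a library showed which genes moved apart. G6pdx counts over Pgd counts were 0.463 ± 0.0210 with the vector and 0.745 ± 0.0388 with HMGB2. G6pdx over Taldo1 went from 0.441 ± 0.0419 to 0.851 ± 0.0726, the widest shift among the 7 count ratios taken. Pgd over Tkt overlapped between groups, at 1.02 ± 0.0252 and 1.02 ± 0.0456, although these genes belong to different arms. Tkt over Taldo1 went from 0.935 ± 0.0486 to 1.11 ± 0.0361, with no overlap. Of the summed CPM of the 9 genes, G6pdx made up 11.0% ± 0.550 with the vector and 16.6% ± 0.827 with HMGB2, and Taldo1 25.0% ± 1.19 and 19.6% ± 0.732. The sum itself was 955 ± 61.1 CPM with the vector and 842 ± 40.3 CPM with HMGB2 (SD, n = 3 each).

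**Figure D3:**
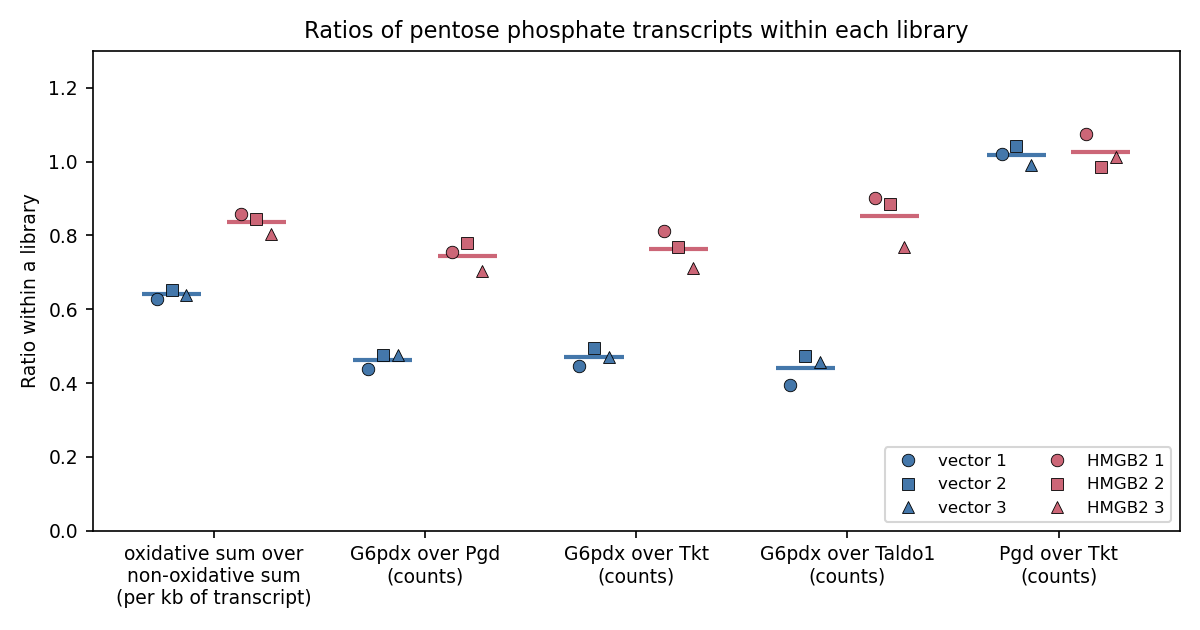
Ratio of the oxidative to the non-oxidative arm and ratios between single enzymes in each library, with the group mean as a line. The arm ratio lies between 0.629 and 0.652 in the vector libraries and between 0.804 and 0.857 in the HMGB2 libraries, and Pgd over Tkt overlaps between groups.

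The other genes around the pathway were read from lists chosen by function, with earlier results of these data known. Among 13 paralogs and partners of the 9 enzymes, 10 could be tested, 1 passed and it was higher, beside 14.4% of all genes. That gene was Pgm1, a phosphoglucomutase that links glycogen and glucose 6-phosphate, at 130.0 ± 11.8 and 169.6 ± 7.28 CPM (SD, n = 3 each, edgeR adjusted p = 0.00873). H6pd, the enzyme of the endoplasmic reticulum that carries out the first oxidative steps there, was at 85.7 ± 11.9 and 97.7 ± 8.76 CPM and did not pass (edgeR adjusted p = 0.260). The median log2 fold change of this list was 0.02, beside -0.0022 for all genes tested. Without both vector 1 and HMGB2 3 the list had 2 higher calls, beside 20.9% of all genes.

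Genes that supply glucose 6-phosphate or carry it down glycolysis included several that rose. Of 15 listed, 14 were tested, 8 were higher and 0 lower, with a median log2 fold change of 0.28, beside 14.4% higher and 10.8% lower among all genes. Slc2a4, the insulin-responsive glucose transporter GLUT4, rose from 11.8 ± 0.451 to 46.5 ± 4.06 CPM (SD, n = 3 each), a log2 fold change of 1.98 (edgeR adjusted p = 2.08e-06). Pfkm, the muscle phosphofructokinase, rose by a log2 value of 1.12 (edgeR adjusted p = 1.20e-05). Hk1, a hexokinase that makes glucose 6-phosphate, rose by 0.76 (edgeR adjusted p = 7.39e-05), and Pfkp, the platelet phosphofructokinase, by 0.46 (edgeR adjusted p = 0.00184).

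Among 14 regulators of pathway flux, 5 were higher and 1 lower (all genes 14.4% and 10.8%), with a median log2 fold change of 0.11. Tigar, a bisphosphatase that lowers fructose 2,6-bisphosphate and steers glucose 6-phosphate to the pathway, rose from 13.2 ± 0.284 to 19.6 ± 1.93 CPM (SD, n = 3 each). Its log2 fold change was 0.57 (edgeR adjusted p = 0.00412). Pfkfb3 and Pfkfb2, whose kinase activity makes fructose 2,6-bisphosphate, were also higher. Their log2 fold changes were 0.34 and 0.48 (edgeR adjusted p = 0.0333 and 0.0491), while Pfkfb1 and Pfkfb4 did not pass. Flux was not measured. Mlxipl, the glucose-sensing transcription factor ChREBP, rose from a low level of 1.502 ± 0.746 to 4.56 ± 0.962 CPM, a log2 change of 1.58 (edgeR adjusted p = 0.00604). For Mlxipl this value was 0.53 on the log2(FPKM + 1) scale, where it did not pass without a filter (limma adjusted p = 0.0504), and 2.07 without vector 3. Nfe2l1, a relative of NRF2, rose by 0.27 (edgeR adjusted p = 0.0194), and Bach1, a repressor at antioxidant response elements, fell by a log2 value of 0.33 (edgeR adjusted p = 0.0280). The gene of NRF2 itself, Nfe2l2, was at 146 and 137 CPM and did not pass (log2 fold change -0.10, edgeR adjusted p = 0.427). Higher calls in this list numbered 3 without vector 3 and 2 without HMGB2 1 or without HMGB2 2. Of all genes, 10.7%, 9.94% and 10.2% were higher in these fits, in that order. The lower call of Bach1 was lost without vector 2, vector 3, HMGB2 2 or HMGB2 3, and 3 regulators were lower without both vector 1 and HMGB2 3. The shares of all genes called lower were 6.16%, 7.04%, 5.67% and 8.97%, in that order, and 19.1% without both.

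Of 14 other genes listed for NADPH supply, 3 were higher and 2 lower, with a median log2 fold change of 0.07. These shares are near those of all genes, 14.4% higher and 10.8% lower. Not every listed gene makes NADPH itself: Nadk and Nadk2 are NAD kinases, which make NADP+, and Mthfd1l is a folate ligase. Nadk2 is among the higher calls and Nadk among the lower (log2 fold change -0.25, edgeR adjusted p = 0.0191). Idh2, the mitochondrial NADP-dependent isocitrate dehydrogenase, rose by 0.53 on the log2 scale, from 105 ± 9.78 to 151 ± 8.40 CPM (SD, n = 3 each, edgeR adjusted p = 0.00190). Nadk2, the mitochondrial NAD kinase, rose by 0.47 (edgeR adjusted p = 0.00358), and Aldh1l1, a folate enzyme, by 0.52 (edgeR adjusted p = 0.00504). Me1, the cytosolic malic enzyme, fell by 0.35 (edgeR adjusted p = 0.00977), from 164 ± 10.7 to 129 ± 7.03 CPM. Lower calls here numbered 1 without vector 2, vector 3 or HMGB2 2 and 0 without HMGB2 1. Of all genes, 6.16%, 7.04%, 5.67% and 5.49% were lower in these fits, in that order.

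Among 16 genes listed as NADPH users, 3 were higher and 4 lower (all genes 14.4% and 10.8%), and the median log2 fold change was -0.20. Not every listed gene uses NADPH itself: Rrm1 is a subunit of ribonucleotide reductase, and Cyba is a partner subunit of an NADPH oxidase. Rrm1 is among the higher calls (log2 fold change 0.29, edgeR adjusted p = 0.0178). Txnrd1, cytosolic thioredoxin reductase, was at 858, 844 and 861 CPM in the vector libraries and at 288, 290.1 and 272 CPM in the HMGB2 libraries. The groups lay far apart, and Txnrd1 fell by a log2 value of 1.59 (edgeR adjusted p = 9.62e-07). Por, the electron donor of microsomal P450 enzymes, fell by 0.34 (edgeR adjusted p = 0.00414). Akr1b3, aldose reductase, rose by 0.72 (edgeR adjusted p = 0.00147), and Nqo1, a quinone reductase, rose by 0.44 (edgeR adjusted p = 0.00544). Lower calls numbered 2 without HMGB2 2 and 7 without both vector 1 and HMGB2 3, beside 5.67% and 19.1% of all genes.

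Of 13 NRF2 targets outside the pathway, 8 were lower and 1 higher, with a median log2 fold change of -0.37, beside 10.8% lower and 14.4% higher among all genes. Hmox1, heme oxygenase 1, fell by 2.14 on the log2 scale, from 1451 ± 158 to 330.1 ± 20.3 CPM (SD, n = 3 each, edgeR adjusted p = 1.42e-06). Gclm, a subunit of the enzyme that starts glutathione synthesis, fell by 1.05 (edgeR adjusted p = 3.00e-05), and Srxn1, sulfiredoxin, fell by 0.51 (edgeR adjusted p = 0.000791). Txnrd1 and Me1, given above, also belong to this list, and Nqo1 was its only gene higher. Taldo1, Tkt, Pgd and G6pdx are known NRF2 targets too, and of these G6pdx went up while the other 3 went down.

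PRPP users, the enzymes that spend the product of Prps1 and Prps2, had 6 of 7 genes tested, 1 higher and 2 lower (all genes 14.4% and 10.8%), with a median log2 fold change of -0.05. Nampt, which makes the NAD precursor nicotinamide mononucleotide, rose by a log2 value of 0.44 (edgeR adjusted p = 0.00158). Hprt, of purine salvage, fell by 0.43 (edgeR adjusted p = 0.0116), and Umps, of pyrimidine synthesis, fell by 0.29 (edgeR adjusted p = 0.0227). Lower calls numbered 1 without vector 2, vector 3, HMGB2 2 or HMGB2 3 and 0 without HMGB2 1, and higher calls numbered 2 without vector 1. Of all genes, 6.16%, 7.04%, 5.67%, 8.97% and 5.49% were lower in these fits, in that order, and 16% were higher without vector 1.

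**Figure D4:**
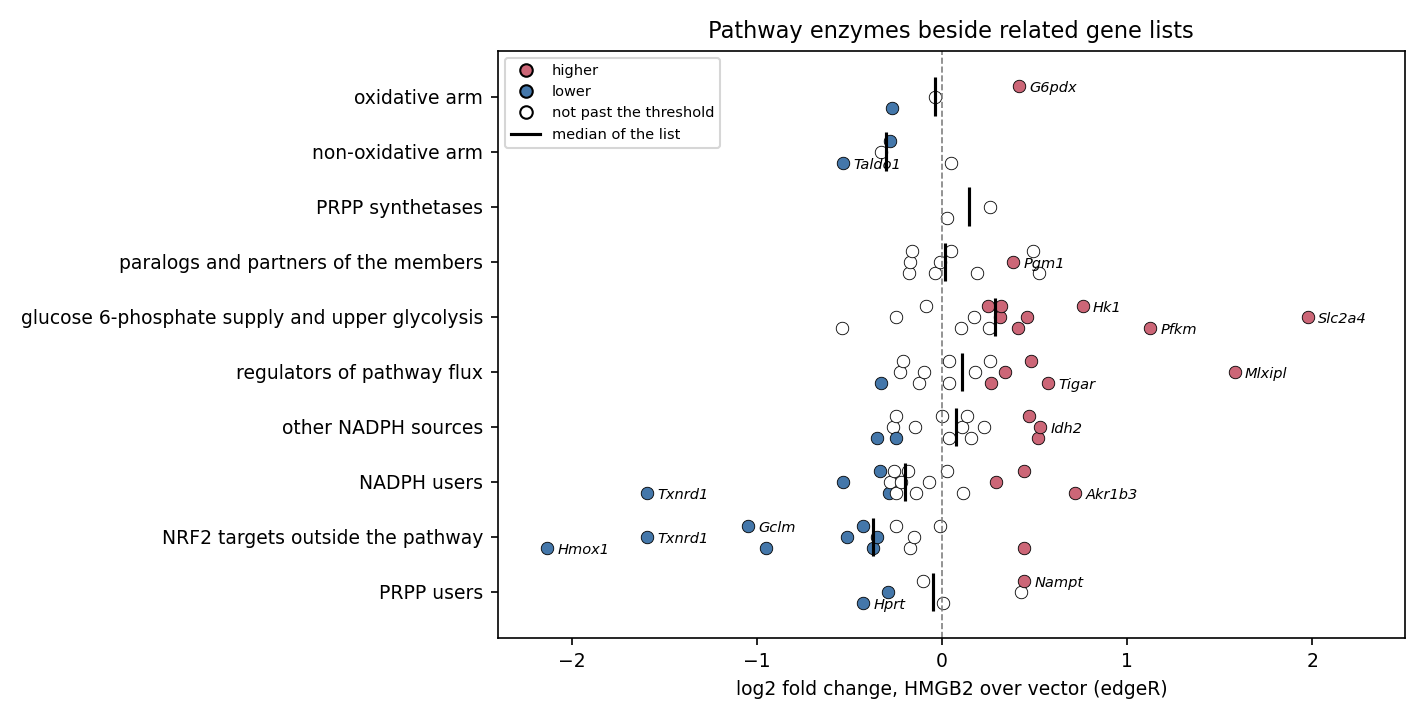
Log2 fold change of each tested gene in the 3 groups of members and the 7 related lists, with genes past the threshold filled and the median of each list as a bar. Glucose supply genes reach 1.98 for Slc2a4, and NRF2 targets reach -2.14 for Hmox1.

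The libraries held 12498215 to 16618365 counts, and Hmgb2 RNA was at 42.6 ± 5.59 CPM with the vector and 184 ± 10.9 CPM with HMGB2 (SD, n = 3 each). Principal components of the 500 most variable genes set the groups apart on the first (77.4% of the variance) while the second (14.3%) separated vector 1 and HMGB2 3 from the remaining 4. Within their groups these 2 libraries had the highest Pgls, Pgd, Tkt and Taldo1. Without both of them, an alternative chosen after seeing the data, 1 member was higher and 3 were lower, beside 20.9% higher and 19.1% lower among all genes (40.0% in all), with edgeR adjusted p of 1.04e-07 for G6pdx, 1.99e-05 for Pgd, 5.67e-06 for Tkt and 4.09e-10 for Taldo1.

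**Figure D5:**
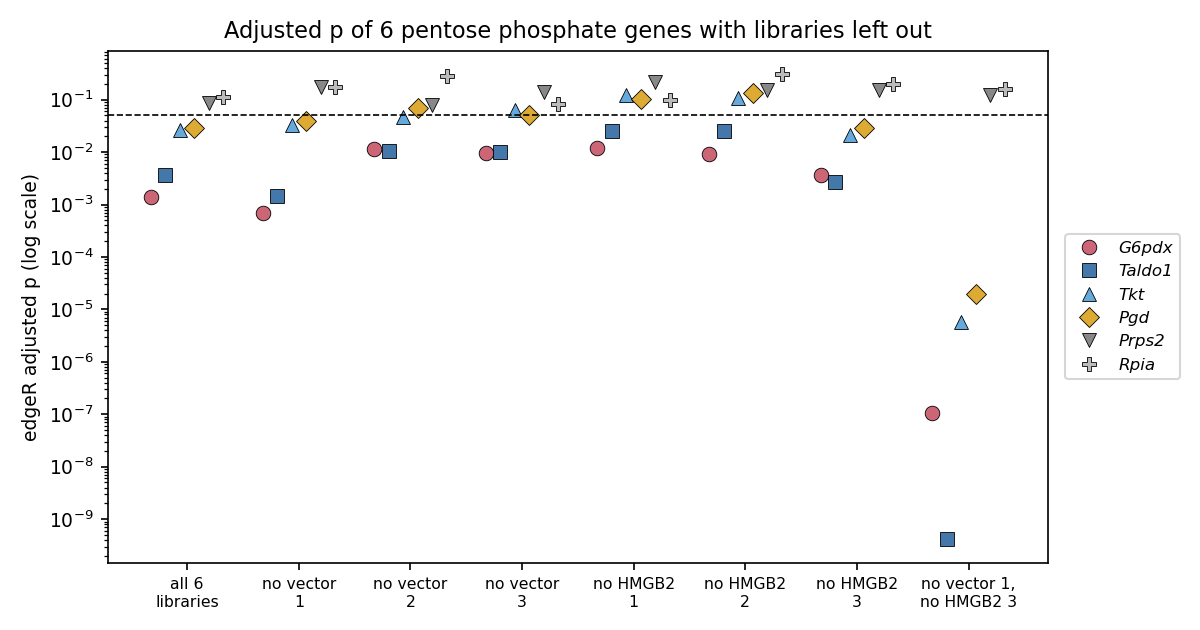
Adjusted p (edgeR, log scale) of 6 of the genes with all libraries and with libraries left out, with the dashed line at 0.05. G6pdx and Taldo1 stay below the line throughout, Pgd and Tkt cross it when single libraries are left out, and Prps2 and Rpia stay above it.

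Markers of the labelled cell type and of other heart cells are given by their counts past the threshold, beside 14.4% higher and 10.8% lower among all genes, and by their summed levels, which were not tested. All 10 cardiomyocyte markers were tested and 7 were higher with HMGB2, with a summed level of 16235 to 17081 CPM in the vector libraries and 22488 to 24563 CPM in the HMGB2 libraries. Of the 8 fibroblast markers 2 were lower, and their sum was 4954 to 5028 CPM with the vector and 4404 to 4497 CPM with HMGB2. The endothelial sum went from a range of 2832 to 2925 CPM to one of 2494 to 2503 CPM, with 2 of 7 markers lower. The mural sum lay at 1333 to 1379 CPM and at 1281 to 1326 CPM, with 1 of 6 lower. Macrophage markers, 4 of 8 lower, summed to 95.4 to 130 CPM and to 71.1 to 82.5 CPM. None of the 6 erythroid markers had enough counts to be tested, 2 of them were at 0 in all libraries, and their sum was at most 1.10 CPM. Lower calls of the endothelial list numbered 1 without vector 1, 0 without any 1 of vector 2, vector 3, HMGB2 1 or HMGB2 2, and 6 without both vector 1 and HMGB2 3. Those of the fibroblast list numbered 4 without vector 1, 1 without HMGB2 1 or HMGB2 2, and 6 without both. The macrophage list had 1 without vector 2, and the mural list 2 without vector 1. Of all genes, 12.4%, 6.16% and 7.04% were lower without vector 1, 2 and 3, and 5.49% and 5.67% without HMGB2 1 and 2. Without both vector 1 and HMGB2 3 the share was 19.1%. The part of these cell types in the results on the pathway was not tested.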

How the data were processed

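TRIzol-extracted RNA of primary neonatal mouse cardiomyocytes was sequenced, per the labels' protocols. Tools listed by the submitters' processing notes, without roles, are StringTie 1.3.3b, HTSeq 0.6.1, HISAT2 2.2.1 and FastQC 0.10.1, and the build is mm10. The sources used here do not state the strand setting. The authors deposited raw whole-number counts per Ensembl gene and, for the same libraries, FPKM values, which rescale those counts by gene length and depth. All columns were used.

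Totals were 12498215, 13911926 and 14101385 counts for vector 1 to 3 and 16618365, 14497676 and 16269222 for HMGB2 1 to 3. Counts were filtered with filterByExpr (minimum count 10), scaled by TMM and tested with edgeR 4.0.16 (robust quasi-likelihood) in R 4.3.3, with limma 3.58.1 and DESeq2 1.42.0 as alternatives. SD is the standard deviation between libraries. Exact permutation of 3 against 3 libraries cannot go below p = 0.1, so no such test is given. Where 2 rows share a symbol (Nnt, Aldoa), the row with more counts was used. Positions come from GENCODE M21 (GRCm38) through the Ensembl identifier, because the table's own positions match that annotation for only 1472 of 52073 shared identifiers and 0 members. The table may therefore use another build than the mm10 named. Exonic overlaps come from the same annotation, copies from blastn 2.17.0, and promoter windows from RefSeq (GRCm38.p6), where all 9 members matched. Scripts were tested on simulated counts, where edgeR recovered 1 of 50 genes changed 1.25-fold, 33 of 50 changed 1.5-fold and 49 of 50 changed 4-fold. Fewer genes changed in the simulation than passed in the data, which makes the adjusted threshold stricter there. A gene that did not pass may therefore still have changed by a small amount.

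Members and lists were chosen with earlier results of these data known. Named genes are Hmgb2, all members, their copies and overlapping genes, and in each list the 4 lowest p-values past the threshold at most, or, with fewer than 2 past it, the 2 genes of highest mean CPM. Nfe2l2, Pfkfb1, Pfkfb2, Pfkfb3, Pfkfb4, Nadk, Mthfd1l, Rrm1, Cyba, Ttn, Xist and the Y-linked genes were added after their values were seen.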

Additional observations from a re-analysis of the deposited data

How the results depend on the processing

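Depth limits low genes most (Rpia had the fewest counts of the 9), and 3 libraries a group limit every interval. Leaving out both vector 1 and HMGB2 3, and the arm ratio per kilobase of all exons, were alternatives chosen after seeing the data. Leaving out 1 library gave 2 to 4 members past the threshold, 1 to 3 of them lower, and 2433 to 4486 of all genes, 1567 to 2526 higher and 866 to 1960 lower. As shares of all genes, these were 9.94% to 16% higher and 5.49% to 12.4% lower. The FPKM fits with limma (pseudocount 1 or 0.1, or 1 with no filter) gave 2 members, 1 lower, with 2.65% to 7.72% of all genes lower and Pgd and Tkt not past (limma adjusted p 0.0581 to 0.104). With no filter they gave 2310 genes in all, 826 lower. Without both vector 1 and HMGB2 3 there were 6251 genes, 2986 lower. The log2 arm ratio of 0.38 was 0.51 on the FPKM scale and 0.51 per kilobase of all exons. Leaving out 1 library moved the log2 fold change of Pgls between -0.121 and 0.110, of Rpe between -0.00027 and 0.0800, of Prps1 between -0.0253 and 0.0876, of Prps1l3 between -0.0686 and 0.0262 and of Xist between -0.182 and 0.221, so each of these signs turned with some library left out. Signs also turned without both vector 1 and HMGB2 3 for Pgls (0.0407) and Prps1l3 (0.0248), and for Prps1l3 with library totals (0.00757) and on FPKM (0.00894 with pseudocount 1, filtered or not, and 0.00959 with 0.1). The cause of these changes was not tested.

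The labels do not say that the replicate numbers pair the libraries. Deviations of same-numbered libraries correlated at -0.318, 0.231 and -0.375 over 15429 genes, and vector 1 correlated best with HMGB2 3 (0.521). With 3 libraries a group and 1 of them set apart in each, these correlations cannot decide whether the numbers mark a pairing. With the replicate number as a block, 2 members passed (1 higher, 1 lower), and 2213 genes in all (1459 higher, 754 lower, or 4.89%). Pgd (edgeR adjusted p = 0.114) and Tkt (0.113) did not pass with the block. In the related lists the block left 5 higher calls in glucose supply, 2 in the regulators and 0 in the paralogs, beside 9.46% of all genes. Lower calls with the block were 5 in the NRF2 targets, 0 in the NADPH supply list and 0 in the PRPP users.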

Other observations

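G6pdx, Prps1 and Prps2 lie on chromosome X. Over the 509 X-linked genes tested, 14.7% were higher and 8.45% lower with HMGB2 (median log2 fold change 0.01), beside 14.5% and 10.9% of 14756 autosomal genes. Xist, the RNA of the inactive X, was at 673, 1151 and 1117 CPM in the vector libraries and at 1132, 1151 and 717 CPM in the HMGB2 libraries, lowest in vector 1 and HMGB2 3 (log2 difference 0.03 with an SE of 0.23, edgeR adjusted p = 0.947). Xist is a long transcript of 17946 bases. Ttn, with a principal transcript of 100404 bases, was also lowest in vector 1 (833 CPM) and HMGB2 3 (1273 CPM). The cause of these low values was not tested. The Y-linked Ddx3y was at 11.8, 11.7 and 13.02 CPM and at 10.8, 11.1 and 11.7 CPM (log2 fold change -0.12, edgeR adjusted p = 0.470). The Y-linked Kdm5d, Eif2s3y and Uty, all at lower levels, leaned the other way, with log2 fold changes of 0.32, 0.14 and 0.45. None of them passed (edgeR adjusted p = 0.374, 0.651 and 0.315), although the groups of Kdm5d did not overlap. Xist and Ddx3y were both present in all 6 libraries.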
